A study of Mus musculus with 2 samples.

Results

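The 10 genes described here encode subunits of the BAF chromatin remodeler in the form found in embryonic stem cells, called esBAF. They were chosen by name, as Smarca4, Smarca2, Arid1a, Smarcc1, Smarcc2, Smarcb1, Smarcd1, Smarce1, Actl6a and Dpf2, and each had 1 row among the 18888 genes of the deposited table. In that order their NCBI Gene identifiers are 20586, 67155, 93760, 20588, 68094, 20587, 83797, 57376, 56456 and 19708. BAF complexes use ATP to slide or evict nucleosomes and so alter the access of transcription factors to DNA. The esBAF assembly is known to be built around Smarca4, Smarcc1 and Arid1a, to bind many of the same sites as the pluripotency factors, and to hold little Smarca2 and Smarcc2 protein. During neural differentiation several subunits are exchanged for relatives encoded by other genes.

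Total RNA was sequenced from 46C cells, a mouse embryonic stem cell (mESC) line that carries a green fluorescent reporter at the Sox1 locus. PB mESCs carried the empty PiggyBac vector, a transposon that inserts into the genome, and PB-TERRA mESCs expressed polyadenylated TERRA, the telomeric repeat RNA, from the same vector. Both were grown on gelatin in conventional mESC medium and shared the same range of passages. The labels do not say whether either line is 1 clone. There was 1 library for each, so no difference below has a replicate check, and clonal or culture differences and TERRA cannot be told apart. TERRA itself was not analysed here. Expression values were read as FPKM, a level scaled to gene length and to the reads of the library. Reads estimated from the steps of these values summed to 24792323 for PB and to 24983169 for PB-TERRA. The cell label was checked against 10 mESC markers, all past 1 FPKM in both libraries, from 27.02 FPKM for Tfcp2l1 in PB to 1162.5 FPKM for Dppa5a in PB. Of these, Tfcp2l1 had the highest log2 ratio (0.33) and Tdgf1 the lowest (-0.18).

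Smarca4, Smarca2 and the 8 other subunit genes spanned a wide range of mRNA levels. Arid1a (BAF250a), a large DNA-binding subunit, had the highest level in both libraries, with 106.08 FPKM in PB and 119.36 FPKM in PB-TERRA. Smarca2, the alternative ATPase, had the lowest, with 0.48 FPKM in PB and 0.52 FPKM in PB-TERRA. The highest and the lowest member thus lay 221-fold apart in PB and 230-fold apart in PB-TERRA. In each library 8 of the genes were above 35 FPKM, and the others were Smarcc2 and Smarca2. A level of at least 1 FPKM in at least 1 library, the filter used for all genes, was passed by 12263 genes and by 9 of the 10 members. Smarca2 did not pass it.

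**Figure D1:**
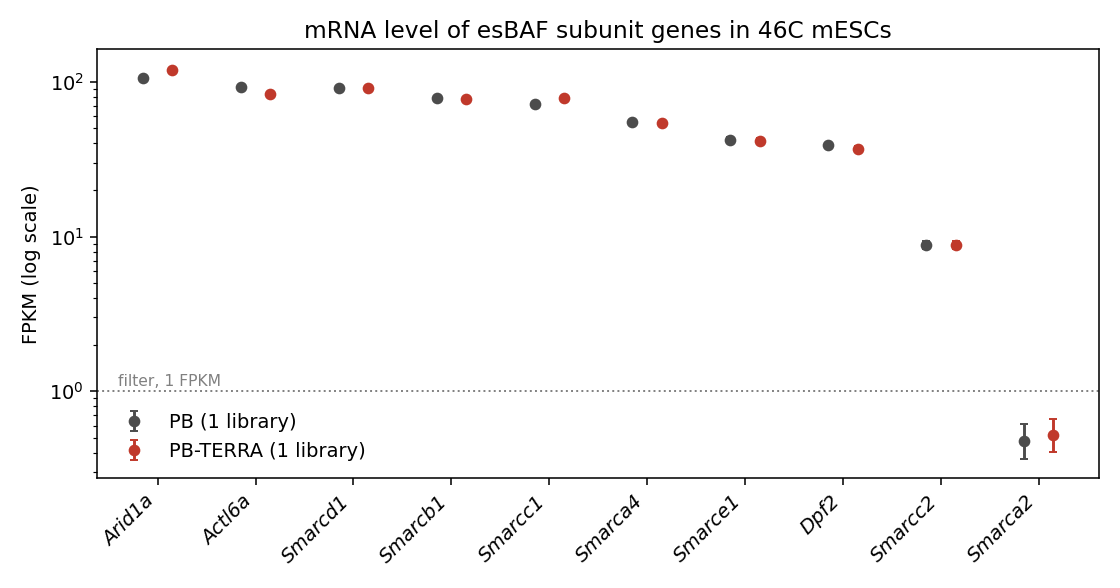
FPKM of the 10 esBAF subunit genes on a log axis, in PB (grey) and PB-TERRA (red), 1 library each, with the exact 95% Poisson interval of the estimated reads as a bar, which is shorter than the point for most genes. Arid1a is at the top with 106.08 and 119.36 FPKM, and only Smarca2, with 0.48 and 0.52 FPKM, lies under the dotted line at 1 FPKM.

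The catalytic subunit is either Smarca4 (BRG1) or Smarca2 (BRM), and a complex holds 1 of them. Smarca4 had 54.88 FPKM in PB and 54.52 FPKM in PB-TERRA, from 8512 and 8524 estimated reads. For Smarca2 the estimated reads numbered 61 and 67. The level of Smarca4 was 114-fold that of Smarca2 in PB (95% counting interval 88.9 to 150.0) and 105-fold in PB-TERRA (82.0 to 135.0). The ratio in PB-TERRA was 0.912 times that in PB, with an exact conditional 95% interval, for counting error only, from 0.633 to 1.31. Of the summed FPKM of both ATPase genes, 99.1% belonged to Smarca4 in PB and 99.1% in PB-TERRA.

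The promoters of Smarca4 and Smarca2 are shown because these alternative ATPase genes lie far apart in level while both promoters are rich in CpG. They are the 250 bases before the RefSeq start on build GRCm38.p6, a later build than the mm9 named for these files, and each is written 5′ to 3′ on the + strand with every CG in capitals. Smarca4 lies at chr9:21615919-21616168 and Smarca2 at chr19:26604910-26605159.
Smarca4: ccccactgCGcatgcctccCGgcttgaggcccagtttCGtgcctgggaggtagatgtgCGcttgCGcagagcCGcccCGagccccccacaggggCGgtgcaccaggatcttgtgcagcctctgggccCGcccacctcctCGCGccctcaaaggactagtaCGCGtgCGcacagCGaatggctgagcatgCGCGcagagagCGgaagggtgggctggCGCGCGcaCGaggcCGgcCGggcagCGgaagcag
Smarca2: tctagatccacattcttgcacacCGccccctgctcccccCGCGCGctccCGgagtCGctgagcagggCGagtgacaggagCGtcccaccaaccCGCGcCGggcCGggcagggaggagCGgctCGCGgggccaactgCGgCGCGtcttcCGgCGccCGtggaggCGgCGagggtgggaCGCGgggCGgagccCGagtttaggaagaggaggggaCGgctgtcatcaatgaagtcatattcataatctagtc
The Smarca4 window holds 25 CG pairs and the Smarca2 window 28, and windows with at least as many make up 21.1% and 15.1% of the 12131 promoters of genes past the filter. Whether CG pairs and mRNA level are related was not tested.

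Promoter windows of this length were matched for 9 members, with 10 windows because Arid1a has a pair of them, and Smarce1 had no entry. They held from 17 CG pairs in Dpf2 to 40 in Smarcc2, against a median of 16 over promoters of genes past the filter and 6 over all 32851 promoters. The letters GGGCGG, the GC box, searched on both strands, occurred in 8 of the 10 windows and in 59.2% of the promoters of genes past the filter. CCAAT occurred in 1 window, that of Dpf2, against 35.7%, and TATAAA in 0 windows against 6.07%. TTAGGG, the letters of 1 telomeric repeat, occurred in 1 window, that of Smarcc1, against 9.40%. No motif was searched with mismatches, and these matches describe letters only.

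The scaffold subunits Smarcc1 (BAF155) and Smarcc2 (BAF170) hold the complex together. Smarcc1 had 71.33 FPKM in PB and 78.27 FPKM in PB-TERRA, and Smarcc2 had 8.83 FPKM and 8.78 FPKM. Smarcc1 was thus 8.08-fold above Smarcc2 in PB (95% counting interval 7.57 to 8.62) and 8.91-fold in PB-TERRA (8.37 to 9.51). The ratio in PB-TERRA was 1.10 times that in PB (1.01 to 1.21).

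Arid1a and Arid1b are alternative DNA-binding subunits that define the canonical BAF complex. Arid1b had 7.54 FPKM in PB and 6.99 FPKM in PB-TERRA, far below Arid1a. The level of Arid1a was 14.1-fold that of Arid1b in PB (13.5 to 14.7) and 17.1-fold in PB-TERRA (16.3 to 17.9). With Arid1a higher and Arid1b lower in PB-TERRA, the ratio there was 1.21 times that in PB (1.14 to 1.29). How far such a ratio varies between cultures was not measured.

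The Smarcd subunits link the remodeler to transcription factors. Smarcd1 had 91.74 FPKM in PB and 90.66 FPKM in PB-TERRA. Its relative Smarcd2 had 26.67 FPKM and 26.17 FPKM, so that Smarcd1 was 3.44-fold and 3.46-fold higher, the most even balance of the pairs. Smarcd3, the form of heart and skeletal muscle BAF, had 2.06 FPKM in PB and 2.95 FPKM in PB-TERRA. Smarcd1 exceeded it 44.5-fold in PB (35.9 to 56.1) and 30.7-fold in PB-TERRA (25.7 to 37.1), so that the ratio in PB-TERRA was 0.689 times that in PB (0.513 to 0.921). For Smarcd1 over Smarcd2 the corresponding value was 1.01 (0.933 to 1.09).

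Dpf2 is a histone reader with a pair of PHD fingers, for which neural BAF uses Dpf1 or Dpf3. Dpf2 had 38.81 FPKM in PB and 36.83 FPKM in PB-TERRA. Dpf1 was present at 7.73 FPKM and 8.65 FPKM, so Dpf2 exceeded it only 5.02-fold in PB (4.53 to 5.57) and 4.26-fold in PB-TERRA (3.86 to 4.70), and the ratio in PB-TERRA was 0.848 times that in PB (0.734 to 0.98). Dpf3 had 0.22 FPKM and 0.20 FPKM, from 9 and 8 estimated reads. Ss18, the subunit that gives way to Ss18l1 in neurons, had 67.23 FPKM and 69.72 FPKM, which was 47.3-fold and 41.7-fold above Ss18l1. The interval of the change in ratio included 1 for Ss18 over Ss18l1 (0.703 to 1.11) and for Dpf2 over Dpf3 (0.368 to 3.21). Of the 8 pairs, 4 thus differed in ratio between the libraries beyond counting error, namely those of Smarcc1 with Smarcc2, Arid1a with Arid1b, Smarcd1 with Smarcd3 and Dpf2 with Dpf1. Differences beyond counting error were common in these libraries, at 35.8% of single genes past the filter and 49.5% of those with at least 20 FPKM, and no share over other pairs of genes was computed, so the count says nothing particular about these pairs. The neuronal partner of Actl6a, Actl6b, had no row under that symbol in the deposited table, so this pair could not be compared.

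**Figure D2:**
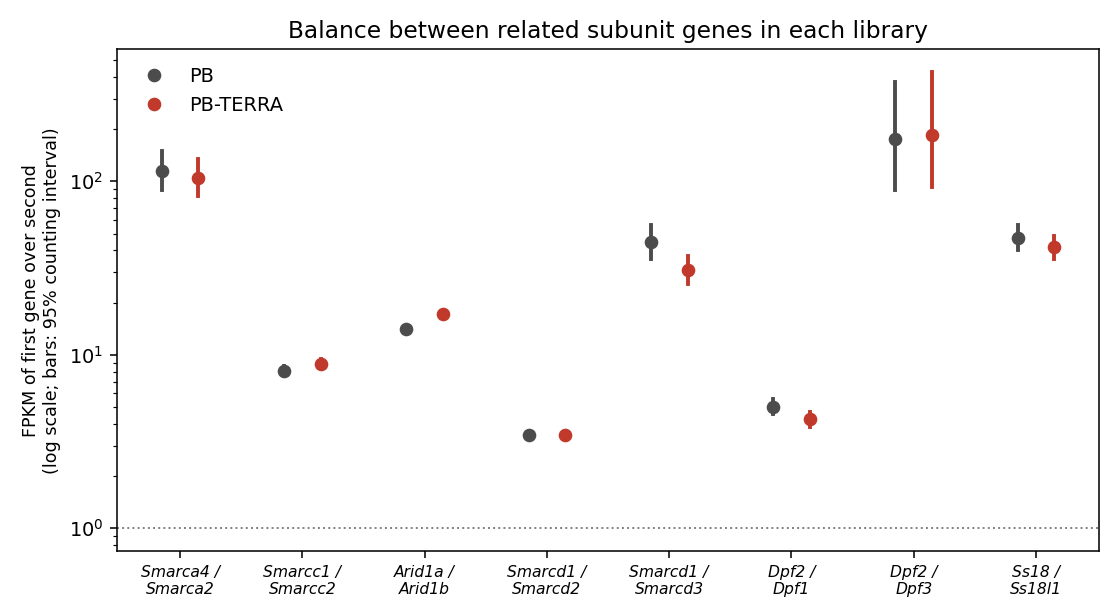
FPKM of the first gene of each pair over that of the second, on a log axis, in PB (grey) and PB-TERRA (red), with the 95% counting interval as a bar. All 8 pairs lie above 1 in both libraries, from 3.44-fold for Smarcd1 over Smarcd2 in PB to 184-fold for Dpf2 over Dpf3 in PB-TERRA. The bars belong to each library alone and do not give the interval of the change between the libraries.

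The order of the levels was almost the same in PB and PB-TERRA. In PB, Arid1a was followed by Actl6a, Smarcd1, Smarcb1, Smarcc1, Smarca4, Smarce1, Dpf2, Smarcc2 and Smarca2. Actl6a (92.06 FPKM) and Smarcd1 (91.74 FPKM) did not differ beyond their counting error there, and the other neighbours did. In PB-TERRA, Smarcd1 (90.66 FPKM) stood above Actl6a (83.79 FPKM), and Smarcc1 (78.27 FPKM) stood next to Smarcb1 (77.40 FPKM) without a difference beyond counting error. From Smarca4 downward both libraries had the same order. Levels of different genes depend on the single gene length that the table lists for each.

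The sequencing was done to look for targets of TERRA that act on telomeres, and the members were compared between the libraries. Each difference is given as log2 of the PB-TERRA over the PB level, with 0.1 FPKM added to both. None of the 9 members past the filter reached a 2-fold difference (0 of 9, against 0.913% of all genes past the filter) or a 1.2-fold difference (0 of 9, against 16.3%, and 5.47% of genes with at least 20 FPKM in each library). Their log2 ratios ran from -0.14 to 0.17 with a median of -0.01, beside a median of -0.004 over all genes past the filter. In PB-TERRA 2 of the 9 were higher and 7 lower, while 48.6% of all genes past the filter were higher and 50.9% lower. This split depended on the scaling of the libraries. With both scaled to the same sum of FPKM, an alternative added after seeing the data, 7 members were higher and 2 lower, beside 58.7% and 41.3% of all genes, and the median of the members was 0.02. Among the 9 members past the filter, only the directions of Arid1a, Smarcc1, Actl6a and Dpf2 were the same under both scalings. With 1 library per group there is no test of these differences.

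The core ATPase Smarca4 had a log2 ratio of -0.01, with a 95% counting interval from -0.05 to 0.03. The interval covers the counting of reads only, not the spread between cultures. Smarcb1 (SNF5), a core subunit that contacts the nucleosome, had 78.17 FPKM in PB and 77.40 FPKM in PB-TERRA, a log2 ratio of -0.01 (-0.09 to 0.06). Smarcd1 had a log2 ratio of -0.02 (-0.07 to 0.03). Smarce1 (BAF57), which carries an HMG domain that binds DNA, had 42.29 FPKM and 41.68 FPKM, a log2 ratio of -0.02 (-0.09 to 0.05). Smarcc2 had a log2 ratio of -0.01 (-0.13 to 0.12). For these 5 genes the libraries thus lay within counting error of each other, and 5 of 9 members had a log2 ratio under 0.03 in size, as did 15.8% of all genes past the filter and 21.5% of those with at least 20 FPKM. Corrected for the ratios of genes of like length, 2 of the 9 were under 0.03, and the share of all genes on that footing was not computed. For Smarca2 the log2 ratio was 0.10, and at its depth the interval of -0.40 to 0.65 left even a moderate difference undetectable.

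Arid1a and Smarcc1 were the 2 members that were higher in PB-TERRA beyond counting error, by 12.5% and 9.73%. For Arid1a, 22869 estimated reads in PB stood against 25940 in PB-TERRA, a log2 ratio of 0.17 (0.14 to 0.20). For Smarcc1, 9851 reads stood against 10897, a log2 ratio of 0.13 (0.09 to 0.17). An interval above 0 was found for 2 of 9 members and for 18.2% of all genes past the filter. Neither difference was rare among well-expressed genes. Among the 3985 genes that reached 20 FPKM in PB as well as PB-TERRA, 7.03% had a log2 ratio at least as high as that of Arid1a, and 11.3% one at least as high as that of Smarcc1.

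Actl6a and Dpf2 were the members that were lower in PB-TERRA beyond counting error. Actl6a (BAF53a), an actin-like protein that also belongs to the INO80 and TIP60 complexes, had 92.06 FPKM in PB and 83.79 FPKM in PB-TERRA. Its log2 ratio was -0.14 (-0.20 to -0.07), and 14.3% of the genes with at least 20 FPKM were at least as low. In the GENCODE M21 annotation of GRCm38, 11.6% of the exon bases of Actl6a also lie in exons of Mrpl47 on the opposite strand. The named library kit does not mark strand, so reads of these bases cannot be told apart, and Mrpl47 itself had 46.70 FPKM and 49.19 FPKM. The same limit holds for 1.57% of the exon bases of Smarcc1, shared with Dhx30 (38.68 FPKM and 37.38 FPKM), for 7.13% and 5.56% of those of Smarcd1, shared with Gm17349 and Gm34939, for 1.22% of those of Dpf2, shared with Gm42067, and for 0.28% of those of Smarca2, shared with 4931403E22Rik. Smarca4 shares 1.53% of its exon bases with Gm27373 on the same strand. Arid1a, Smarcb1, Smarcc2 and Smarce1 shared no exon bases with another gene. All these percentages refer to the exon bases of the GENCODE annotation, which can differ from the gene lengths listed with the expression values. For Actl6a, 452 bases are shared and the listed length is 1969 bases. For Dpf2 the log2 ratio was -0.08, and its interval, -0.15 to -0.0024, only just missed 0. With equal sums of FPKM its log2 ratio was -0.04 and the interval included 0. An interval below 0 was found for 2 of 9 members and for 17.6% of genes past the filter. In either direction it was 4 of 9 members, against 35.8% of genes past the filter and 49.5% of those with at least 20 FPKM.

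**Figure D3:**
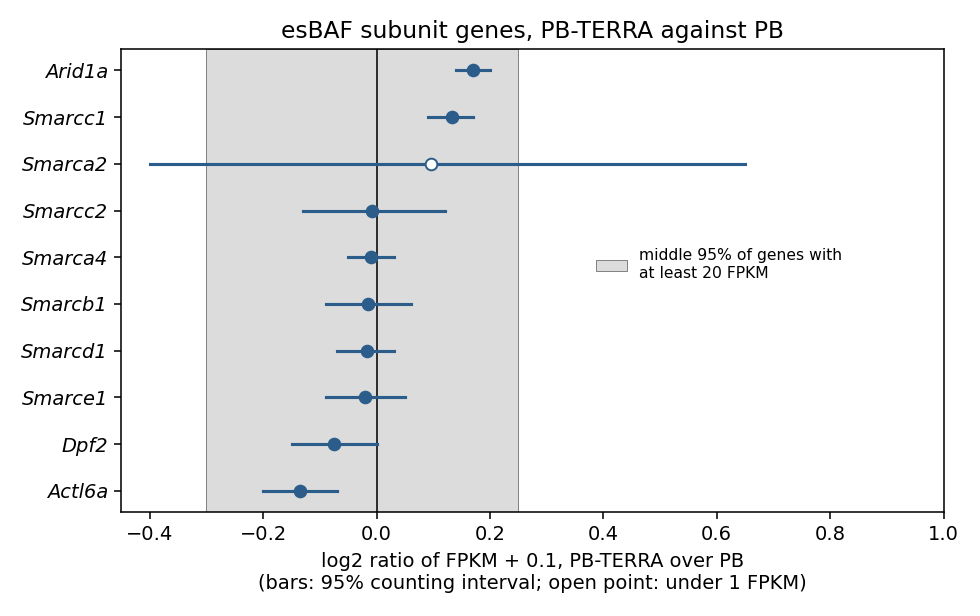
Log2 ratio of PB-TERRA over PB with 0.1 FPKM added to each, for each esBAF subunit gene (points, open for Smarca2 under 1 FPKM) with its 95% counting interval (bars). The grey band holds the middle 95% of genes with at least 20 FPKM, from -0.30 to 0.25, and all 10 points lie inside it, from -0.14 for Actl6a to 0.17 for Arid1a. Smarca2 and Smarcc2 are below 20 FPKM, so the band does not describe genes of their level. The interval of Smarca2, -0.40 to 0.65, extends past the band on both sides.

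The signed log2 ratio was higher for longer genes. The median log2 ratio was -0.06 in the tenth of genes past the filter with the shortest length and 0.05 in the tenth with the longest. Arid1a, of 8808 bases, is the longest member, and Smarcc1 has 5684 bases, whereas Actl6a has 1969 bases. Taking off the median of genes of like length, in 50 bins, gave log2 ratios of 0.11 for Arid1a, 0.09 for Smarcc1 and -0.12 for Actl6a. All 3 intervals stayed on their side of 0. Smarca4, of 6369 bases, had a log2 ratio of -0.05 on this footing, with an interval below 0. The part of length in these differences was not tested.

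**Figure D4:**
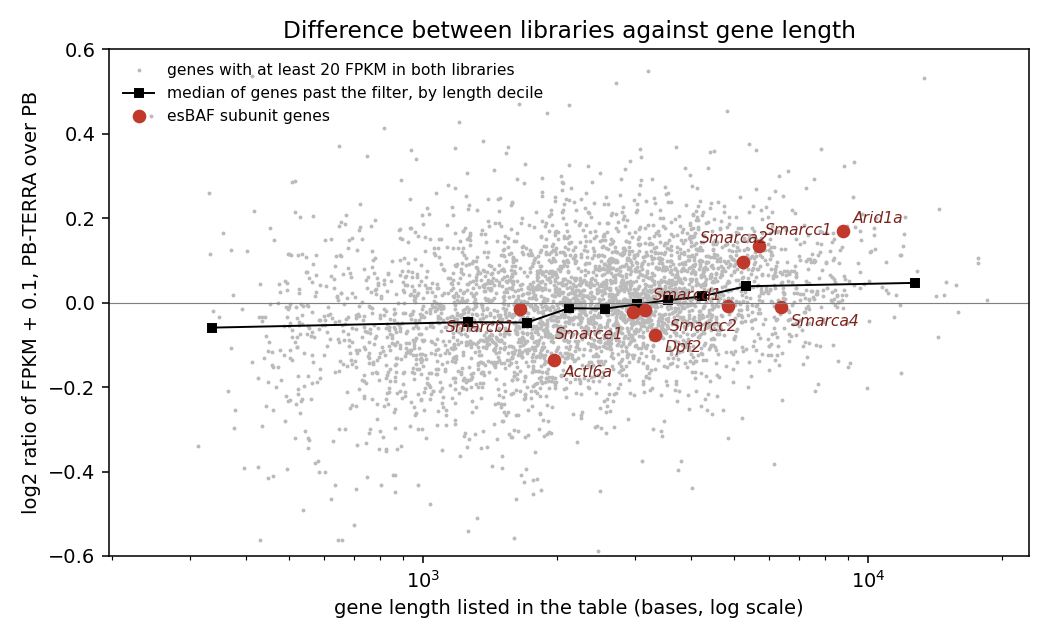
Log2 ratio of PB-TERRA over PB with 0.1 FPKM added to each, against the gene length of the table on a log axis, for genes that reached 20 FPKM in each library (grey; 20 of 3985 lie outside the drawn range), for the 10 esBAF subunit genes (red) and as the median of genes past the filter in each length decile (black). The black line runs from -0.06 to 0.05, and Arid1a (0.17) and Smarcc1 (0.13) lie above it while Actl6a (-0.14) lies below.

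Further BAF genes showed differences of the same size. The list of other subunits of BAF, PBAF (the form with Pbrm1 and Arid2) and ncBAF (the form with Brd9 and Gltscr1) held 14 genes, all past the filter. PB-TERRA was higher for 5 and lower for 9, with a median log2 ratio of -0.02. A 1.2-fold difference was reached by 0 of 14, against 16.3% of all genes past the filter. The split was 8 and 6 after the length correction and 10 and 4 with equal sums of FPKM. Of all genes past the filter, 49.9% were higher and 49.9% lower after that correction, and 58.7% and 41.3% with equal sums. The highest was Gltscr1l (Bicral), an ncBAF subunit, from 19.05 to 21.46 FPKM (0.17). The lowest was the PBAF subunit Arid2, from 23.48 to 21.12 FPKM (-0.15). Arid1b had a log2 ratio of -0.11 (-0.20 to -0.02).

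Subunits of neural and muscle BAF had levels from 0.20 FPKM for Dpf3 to 8.65 FPKM for Dpf1, both in PB-TERRA. Of 5 listed, 4 were in the table and 3 passed the filter, and these were all higher in PB-TERRA, with log2 ratios of 0.16 for Dpf1, 0.22 for Ss18l1 and 0.50 for Smarcd3. Only the interval of Smarcd3, from 83 and 120 estimated reads, lay on 1 side of 0 (0.10 to 0.94). Dpf3 did not pass the filter. Among 10 neural markers, 3 passed the filter, with log2 ratios of 0.52 for Sox1 and -0.16 for Tubb3 at the ends. The summed level of all 10 was 63.3 FPKM in PB and 58.0 FPKM in PB-TERRA, mostly Tubb3 (57.66 and 51.48 FPKM), and Dcx was listed at the floor of 0.01 FPKM in both libraries. Of 8 fibroblast markers, 4 passed the filter, 2 of them (Col1a2 and Pdgfrb) through PB-TERRA alone, with log2 ratios from -0.13 for Thy1 to 0.60 for Col1a1 and summed levels over all 8 of 19.7 and 23.9 FPKM. Of 7 primitive endoderm markers, 5 passed the filter, with log2 ratios from 0.30 for Gata4 to 0.85 for Pdgfra. Pdgfra, with 0.51 FPKM in PB and 1.0 FPKM in PB-TERRA, passed through PB-TERRA alone, so its place among them was partly fixed by the filter. Leaving Pdgfra aside, counting intervals lay above 0 for Gata6, Sox7 and Dab2 and not for Gata4, beside 18.2% of all genes past the filter. The summed level of all 7 was 10.5 FPKM in PB and 14.7 FPKM in PB-TERRA. In bulk RNA, a different number of cells of a type and a different amount of RNA per cell cannot be told apart. The part of such cells in the values of Smarcd3, Dpf1 and Ss18l1 was not tested.

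ATPases of other remodeler families were compared as well. Of 18 genes, all past the filter, 12 were higher, 5 lower and 1 equal, with a median log2 ratio of 0.02. A 1.2-fold difference was reached by 0 of 18, against 16.3% of all genes past the filter. The split was 6 and 12 after the length correction, beside 49.9% higher and 49.9% lower of all genes. With equal sums of FPKM it was 16 and 2, beside 58.7% and 41.3%. Atrx, which deposits histone H3.3 at telomeres together with Daxx, was the highest, from 29.70 to 34.37 FPKM (0.21). Chd7 was the lowest, at -0.06 (-0.12 to 0.01). The catalytic gene of esBAF, Smarca4, lay inside this range. The table also tags 17 genes with cellular component terms for SWI/SNF or BAF complexes, 8 of them members. The tagged genes are not a list of BAF subunits. They lack Smarcb1 and Dpf2 and include Chaf1a, Baz1b and Top2b, which are in none of the other lists. Of the 15 past the filter, 8 were higher and 7 lower (14 and 1 with equal sums of FPKM), with a median of 0.01, and Smarcd3 (0.50) and Actl6a (-0.14) were at the ends.

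**Figure D5:**
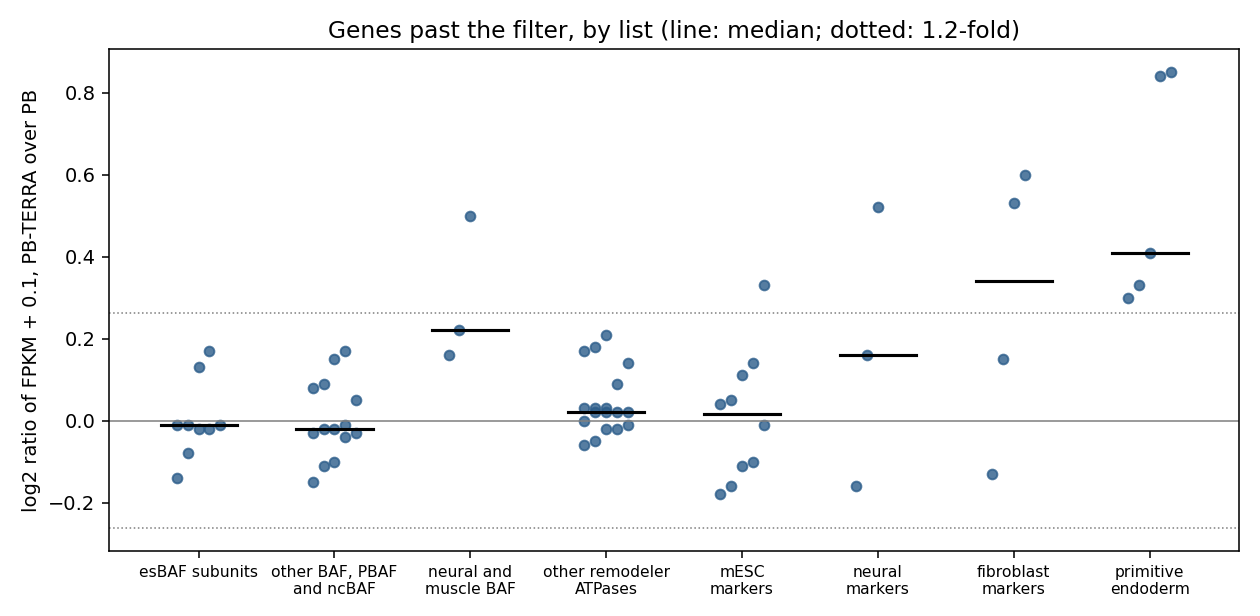
Log2 ratio of PB-TERRA over PB with 0.1 FPKM added to each, for genes past the filter in each list (points), with the median as a line and dotted lines at a 1.2-fold difference in either direction. The esBAF subunits, the other BAF subunits and the other remodeler ATPases lie between the dotted lines, while Smarcd3 (0.50), the 5 primitive endoderm markers (0.30 to 0.85), Tfcp2l1 (0.33), Sox1 (0.52) and 2 fibroblast markers (Col1a1 and Col1a2) lie above the upper one, of which Pdgfra and Col1a2 are drawn because PB-TERRA, where they were higher, reached 1 FPKM.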

How the data were processed

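Both libraries, 1 per group, were made from 46C mESCs. Per the submitters' processing notes the authors used HISAT, Cufflinks and the build mm9, and the annotation is not given in the sources used here. The deposited table lists gene lengths and values without a named unit, rounded by the authors to 2 decimals with a floor of 0.01. The deposited values were taken as FPKM, in which the authors had divided reads by gene length and library size, from their column sums (497560 in PB, 484632 in PB-TERRA) and their steps. The fold changes, p-values and adjusted p-values that the authors also deposited were not used.

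Depth was found from FPKM alone, as the number of reads, with 115 bases taken off each length, under which low values of 0.5 to 10.5 reads come closest to whole reads. The mean distance was 0.10 reads over 617 values in PB and 0.087 over 637 in PB-TERRA, where unrelated values would give 0.25, and 72.4% and 77.7% were whole within rounding plus 0.02 reads. From these reads, 95% intervals (exact Clopper-Pearson for ratios, Poisson for levels, exact conditional odds ratio for changes of a pair's ratio) cover counting error only. No test was possible. The added 0.1 FPKM understates differences of low genes.

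The members and lists were chosen with earlier results of these data known. The rule named the members, the related pairs, and the highest and lowest gene of each list. The genes that share exons with members, Dcx, Dppa5a, Col1a2, Pdgfrb, Gata6, Sox7 and Dab2 were added after their values were seen. Alternatives were the pseudocount, filter, scaling, gene length, interval level and level unit. The computations were tested on simulated data, in Python 3.11.15 with matplotlib 3.10.9, scipy 1.17.1, pandas 2.3.3 and numpy 2.4.6.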

Additional observations from a re-analysis of the deposited data

How the results depend on the processing

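The median log2 ratio of the members lay between -0.014 and -0.010 under 7 alternatives and was 0.024 with both libraries scaled to the same sum of FPKM, which was added after seeing the data. That scaling turned the signs of Smarca4, Smarcc2, Smarcb1, Smarcd1 and Smarce1, whose intervals include 0, and the length correction turned that of Smarcb1. No member reached 1.2-fold or 2-fold under any of 6 alternatives. Of 4 counting intervals on 1 side of 0, 3 were left with 99% intervals, with centring on the median of all genes and with equal sums, each time without Dpf2, and there were 5 with the length correction, also added after seeing the data, where Smarca4 joined them. The intervals of Arid1a, Smarcc1 and Actl6a kept their side in these 4 alternatives. The share of all genes past the filter, 35.8% in the main setting, was not computed for them. With estimated reads in place of FPKM, the share of the first gene of a pair was, in PB and PB-TERRA, 90.46% and 91.28% for Smarcc1 over Smarcc2, 91.6% and 92.98% for Arid1a over Arid1b, 80.87% and 80.98% for Smarcd1 over Smarcd2, 98.81% and 98.29% for Smarcd1 over Smarcd3, 88.13% and 86.3% for Dpf2 over Dpf1, and 96.97% and 96.58% for Ss18 over Ss18l1, since reads also count gene length. With a mean of at least 5 FPKM the median of the neural markers was -0.163, from Tubb3 alone. No paired analysis was possible because each group has 1 library, and no replicate could be left out. Depth limits Smarca2 and Dpf3, with at most 67 and 9 estimated reads.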
